A study of Mus musculus with 30 samples.

Results

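Genes of the hepatic fasting response and of gluconeogenesis were followed in mouse liver, namely Fgf21, Angptl4, Pdk4, Ppargc1a, Pck1, G6pc, Fbp1, Creb3l3, and Txnip. All probe sets annotated to 1 of these 9 genes alone were taken, 17 of the 45101 probe sets on the array. Of the 17, 13 had a signal above the median of all values (5.65 on the log2 scale) in at least 5 of the 30 arrays and were tested, with every gene represented. The other 4 (1 of Angptl4, 2 of Ppargc1a, and 1 of Pck1) were weak, and their values are given separately.

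Liver RNA came from male mice aged 6-9 months, either wild-type (WT, 129S1/SvlmJ) or PPARalpha-null (Null, 129S4/SvJae-Pparatm1Gonz/J, which carry a targeted Ppara allele). Mice were gavaged on 7 consecutive days with 0, 3, or 10 mg/kg of the potassium salt of perfluorooctane sulfonate (PFOS), a persistent perfluorinated surfactant, and both control groups received the same 0.5% Tween 20 vehicle. Each of the 6 groups held 5 mice, with 1 Affymetrix array for the left liver lobe of each mouse. Food was available ad libitum, and a fasted group was not analysed here. The strain names of WT and Null differ, so in any comparison between them the Ppara allele and other differences between the substrains cannot be told apart.

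During a fast, falling insulin and rising glucagon and glucocorticoids turn the liver from glucose storage to glucose output and fatty acid oxidation. Glucagon acts through cyclic AMP and the factor CREB, and FOXO1 is released from insulin restraint. Both raise PGC-1alpha (Ppargc1a), a coactivator that in turn supports transcription of the gluconeogenic enzymes phosphoenolpyruvate carboxykinase (Pck1), fructose bisphosphatase (Fbp1), and the catalytic subunit of glucose-6-phosphatase (G6pc). PPARalpha is the fatty acid receptor that drives the other arm, which includes the hormone FGF21, the lipoprotein lipase inhibitor ANGPTL4, and PDK4, a kinase that shuts pyruvate out of oxidation by blocking pyruvate dehydrogenase. CREB3L3 (CREBH) is a membrane-bound liver factor that acts with PPARalpha on Fgf21, and TXNIP is an inhibitor of thioredoxin and of glucose uptake whose gene is driven by glucose.

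Promoter sequences of 5 members are printed because these genes differ in how they moved with PFOS or genotype: Pck1 and Ppargc1a were lower and Pdk4 and Txnip higher in WT mice at 10 mg/kg, and Fgf21 differed between genotypes. Each is the 250 bases before the annotated start, 5′ to 3′ on the gene's strand, from RefSeq (GRCm38.p6), and capitals mark motif matches.
Pck1 (chr2:173152823-173153072, plus strand): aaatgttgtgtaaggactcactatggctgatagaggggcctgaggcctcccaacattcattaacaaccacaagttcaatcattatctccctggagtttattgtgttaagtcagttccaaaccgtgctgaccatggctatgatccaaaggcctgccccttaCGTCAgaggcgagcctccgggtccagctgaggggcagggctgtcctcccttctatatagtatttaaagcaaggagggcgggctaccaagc
Ppargc1a (chr5:51567726-51567975, minus strand): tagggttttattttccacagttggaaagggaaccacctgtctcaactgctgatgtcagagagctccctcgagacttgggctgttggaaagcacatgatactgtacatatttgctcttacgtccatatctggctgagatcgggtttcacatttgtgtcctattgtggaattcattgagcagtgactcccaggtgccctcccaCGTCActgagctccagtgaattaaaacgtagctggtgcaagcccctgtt
Pdk4 (chr6:5496279-5496528, minus strand): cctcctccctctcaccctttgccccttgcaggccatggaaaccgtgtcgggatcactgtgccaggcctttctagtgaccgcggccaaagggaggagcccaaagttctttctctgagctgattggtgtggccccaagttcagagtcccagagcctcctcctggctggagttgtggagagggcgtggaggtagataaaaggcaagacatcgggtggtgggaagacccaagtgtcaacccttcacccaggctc
Txnip (chr3:96557707-96557956, plus strand): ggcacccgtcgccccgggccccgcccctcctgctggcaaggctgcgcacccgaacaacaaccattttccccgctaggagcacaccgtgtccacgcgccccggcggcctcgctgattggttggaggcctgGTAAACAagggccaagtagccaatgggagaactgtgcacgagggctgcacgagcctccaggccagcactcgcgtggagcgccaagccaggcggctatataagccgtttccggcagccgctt
Fgf21 (chr7:45615491-45615740, minus strand): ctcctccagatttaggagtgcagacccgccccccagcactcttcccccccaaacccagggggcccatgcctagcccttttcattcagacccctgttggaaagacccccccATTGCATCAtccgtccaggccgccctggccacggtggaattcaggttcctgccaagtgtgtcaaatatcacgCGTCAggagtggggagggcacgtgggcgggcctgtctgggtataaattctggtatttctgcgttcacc
The capitals in Pck1 (-90 to -86 from the start) and in Ppargc1a (-49 to -45) are the short cyclic AMP response element (CRE) TGACG read on the other strand, a sequence bound by CREB. In Txnip they are the FOXO and FOXA core GTAAACA (-121 to -115). In Fgf21 they are an ATF4 composite motif, TGATGNAAT on the other strand (-140 to -132), and a short CRE (-68 to -64). In all 9 motifs were searched on both strands. They were the nuclear receptor core site AGGTCA, a direct repeat of that site with 1 base between (the PPARalpha element, which contains the core site), the full CRE (TGACGTCA, which contains the short CRE), the short CRE, the FOXO core, the ATF4 composite, the E-box CACGTG, a direct repeat of the E-box with 5 bases between (the carbohydrate response element, which contains the E-box), and the TATA box TATAAA. Fgf21 also held an E-box and a TATA box, and none of the 9 was found in the window of Pdk4. The table held 32851 windows of 300 bases, reaching 50 bases past the start. A short CRE was present in 20.8% of them, the FOXO core in 3.65%, the ATF4 composite in 0.965%, the nuclear receptor core site in 16.3%, the E-box in 7.15%, the TATA box in 13.6%, the full CRE in 1.79%, and the direct repeat of the core site in 0.0396%. The carbohydrate response element in this strict form was in 0 windows, so its absence from a member's window carries no information. Inexact copies of the E-box were not searched, in Txnip or elsewhere. These matches describe letters only. The Ppargc1a window is 1 of several known starts of that gene, and the windows of G6pc, Fbp1, and Creb3l3 were read without being printed.

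The values are log2 signals from Robust Multichip Average (RMA), in which a difference of 1 is 2-fold. Hepatocyte markers such as Alb (mean 14.41) were near the top of the signal range in all groups, while markers of fat, pancreas, kidney, and muscle were weak. Of those 17 markers, 11 did not pass the filter, with Umod (2.42) the lowest, and the 6 that did (Retn, Ins2, Prss2, Kap, Acta1, and Ckm) had means from 5.91 to 6.58. The mean signals of Fgf21 (6.13) and of the tested Ppargc1a probe sets (6.19 to 6.46) lay in that same range. The number of arrays limits the precision. The targeted gene itself was read as the mean of 3 Ppara probe sets. It lay between 8.78 and 9.81 in the 15 arrays labelled Null and between 9.93 and 10.77 in 13 of the 15 labelled WT. The remaining 2, replicates 4 and 5 labelled WT 0 mg/kg, were at 8.66 and 8.74, below every other array, and their Cyp2b10 signals of 12.80 and 12.93 exceeded the 7.81 to 8.20 of replicates 1 to 3 of that label. These 2 arrays went against their label, so the results of the members and the counts of the pathway lists that use the control group labelled WT were also computed without them, a check added after seeing the data. Their Fgf21 signals, within the Null range, were also known by then.

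In the livers labelled WT, 7 of the 9 genes changed at 10 mg/kg, in both directions. Pdk4, Txnip, Angptl4, and Creb3l3 rose, by 1.28-fold to 3.10-fold. Ppargc1a, Pck1, and Fbp1 fell, with log2 changes from -1.02 to -0.18, and no fold is given because Ppargc1a lay near the filter level. Changes of 0.67 in Fgf21 and -0.51 in G6pc did not pass. In probe sets, 11 of the 13 tested were called at an adjusted p under 0.05 (5 higher, 6 lower). Over all 24069 probe sets tested, 10.4% were called (5.85% higher, 4.55% lower). Without the 2 doubted arrays the count was 10 of 13, against 24.5% of all probe sets, the same 7 genes moved in the same directions, and 1 of 2 Txnip probe sets was no longer called. At 3 mg/kg, 0 of 13 were called by limma (3 at an unadjusted p under 0.05, and 1 by the methods' t-test at its limit), where 0.162% of all probe sets were. Between 10 and 3 mg/kg, 5 of 13 were called, with Pdk4 higher and Pck1 (1423439_at only) and Ppargc1a lower, against 5.25% overall. The comparisons at 3 and 10 mg/kg share their control arrays. In bulk liver, fewer cells of a type and less RNA per cell cannot be told apart.

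**Figure D1:**
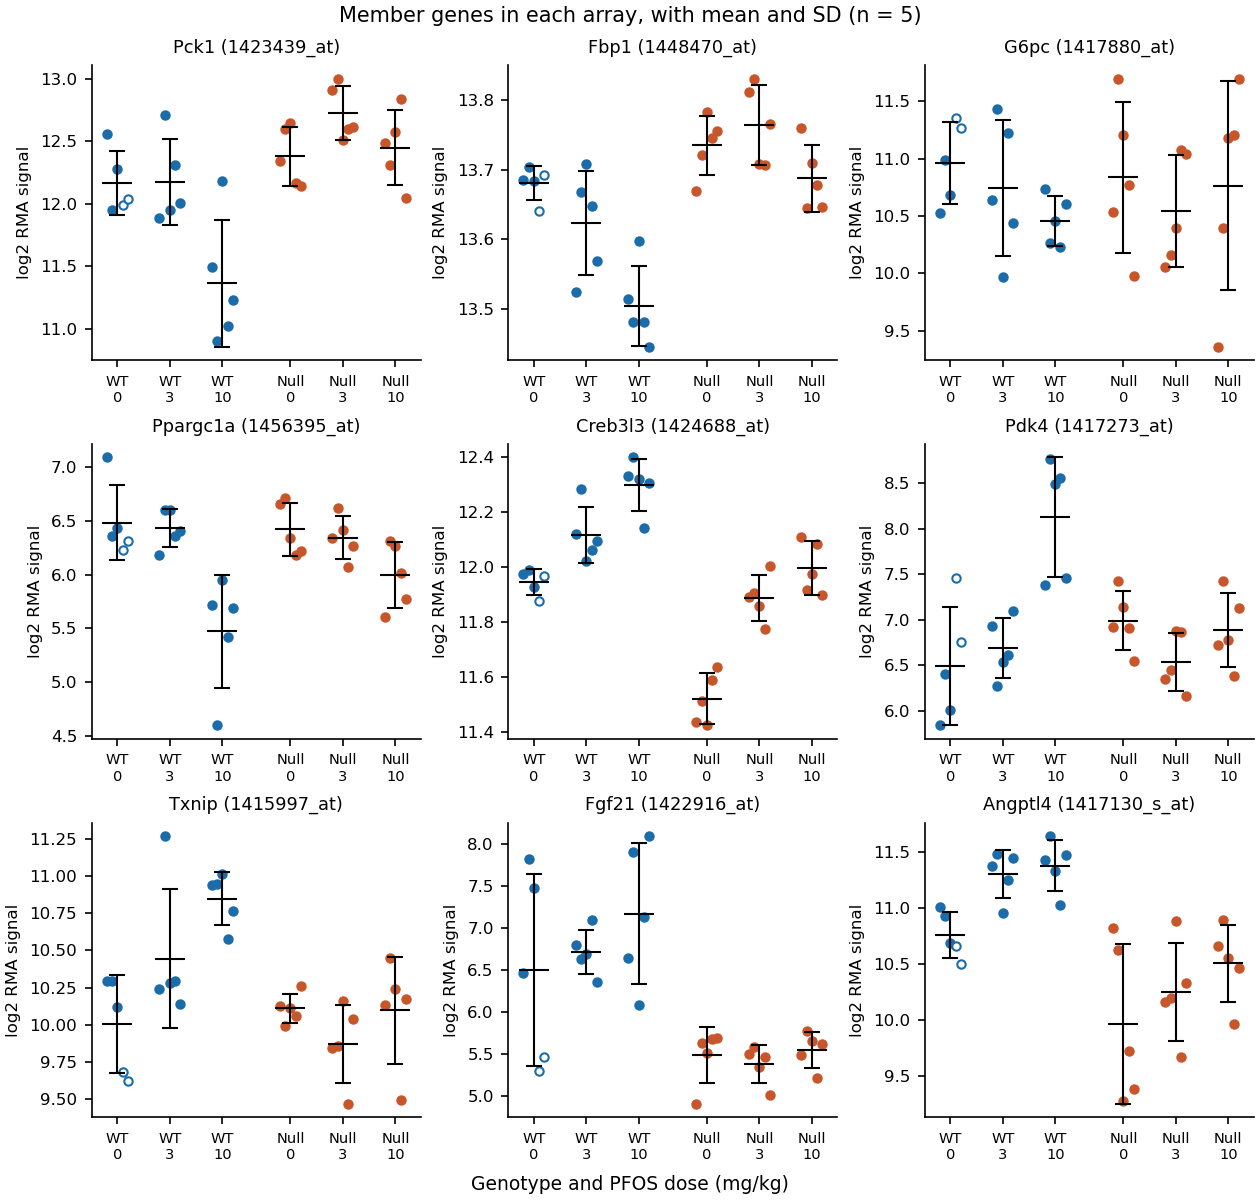
Log2 RMA signal of the 9 genes, each read through the probe set that varied most significantly with dose, in 5 arrays for each genotype and PFOS dose (mg/kg); points are arrays, bars are means and SD, and open circles are the 2 doubted arrays. Pck1 and Ppargc1a drop and Pdk4 rises in WT at 10 mg/kg, and Fgf21 in Null stays between 4.90 and 5.78 at every dose.

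In the livers labelled Null, Creb3l3 was the one member called at either dose. At 3 mg/kg, 1 of 13 was called (3.88% of all probe sets), with 5 at an unadjusted p under 0.05. At 10 mg/kg, 1 of 13 was called (7.04% of all), with 3 at an unadjusted p under 0.05. Between 10 and 3 mg/kg, 0 of 13 were called by limma (1 at an unadjusted p under 0.05, and 0 by the methods' t-test), and the share over all probe sets was 0%.

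Pck1, which makes phosphoenolpyruvate from oxaloacetate at the first committed step of gluconeogenesis, fell in WT mice. Its probe set 1423439_at read 12.56, 11.95, 12.28, 11.99, and 12.04 in WT controls. The 3 mg/kg arrays read 11.89, 12.71, 11.95, 12.31, and 12.01. The 10 mg/kg arrays read 11.49, 10.90, 12.18, 11.02, and 11.23. Of these, 4 lay below every control, and replicate 3 lay among the controls. The change at 10 mg/kg was -0.80 ± 0.22 (SE, n = 5; adjusted p = 0.0298), and -0.90 without the doubted arrays (adjusted p = 0.0215). The second tested probe set, 1439617_s_at, changed by -0.89 ± 0.27 (adjusted p = 0.0433), or by -0.997 without the doubted arrays (adjusted p = 0.0351), and the pair were correlated over the 30 arrays (r = 0.96). These calls were close to the threshold. Over 11 other settings of the fit and test, with the methods' t-test counted at both its limits, 1423439_at was called in 7 (adjusted p from 0.00576 to 0.0651) and 1439617_s_at in 4 (adjusted p from 0.0121 to 0.0876). With 1 array left out in turn, 1423439_at was called in 9 of 15 runs (smallest change -0.68, adjusted p from 0.00337 to 0.0830), and lost without replicate 1 or 3 of the controls or replicate 1, 2, 4, or 5 at 10 mg/kg. For 1439617_s_at it was 4 of 15 runs (-1.09 to -0.72, adjusted p from 0.0122 to 0.115), with the call held without WT 10 mg/kg replicate 3, WT 0 mg/kg replicate 5, or WT 3 mg/kg replicate 1 or 2. Against 3 mg/kg, 1423439_at fell by 0.81 at 10 mg/kg (adjusted p = 0.0425). That call held in 5 of 11 other settings and in 6 of 15 runs with 1 array left out. The change of -0.93 in 1439617_s_at did not pass (adjusted p = 0.0532).

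In Null mice Pck1 was not called at either dose. Its 1423439_at signal was 12.34, 12.60, 12.65, 12.16, and 12.14 in controls and 12.48, 12.31, 12.57, 12.84, and 12.04 at 10 mg/kg, and these ranges overlapped. The changes of 0.35 ± 0.15 at 3 mg/kg (adjusted p = 0.216) and 0.07 ± 0.15 at 10 mg/kg (adjusted p = 0.824) did not pass. Null signals at 10 mg/kg were higher than WT signals by 1.09 (adjusted p = 0.000327) and by 1.30 for 1439617_s_at (adjusted p = 0.000782). At 0 mg/kg the same differences were 0.21 and 0.01 (adjusted p = 0.650 and 0.988).

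Fbp1, which removes the first phosphate of fructose bisphosphate, had a tight signal near the top of the array's range (the largest value in the table was 14.50). Its WT controls read 13.69, 13.70, 13.68, 13.64, and 13.69. The WT arrays at 10 mg/kg read 13.51, 13.48, 13.60, 13.48, and 13.45, all below the controls. The change was small, -0.18 ± 0.05 (adjusted p = 0.0478), and -0.19 without the doubted arrays (adjusted p = 0.0498). The Fbp1 call held in 3 of 15 runs with 1 array left out, those without WT 3 mg/kg replicate 1 or 2 or WT 10 mg/kg replicate 3 (adjusted p from 0.0291 to 0.109 over the 15). Over the 11 other settings of the fit it held in 7, and was lost with no filter, arrays shifted to the same median, the compared groups only, or the replicate block (adjusted p = 0.105, 0.120, 0.0823, and 0.0725). In Null mice the change at 10 mg/kg was -0.05 (adjusted p = 0.676), and Null exceeded WT by 0.18 at that dose (adjusted p = 0.0106), a call lost with the compared groups only (adjusted p = 0.113).

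G6pc, which releases free glucose, was not called in any comparison. Its WT signals ran from 10.53 to 11.36 at 0 mg/kg, from 9.97 to 11.43 at 3 mg/kg, and from 10.23 to 10.73 at 10 mg/kg, so that the groups overlapped. Its WT change at 10 mg/kg was -0.51 ± 0.24 (95% interval -1.01 to -0.01, adjusted p = 0.170), and -0.28 without the doubted arrays, a move of over 1.5 times. In Null the signals spanned 9.97 to 11.70 in controls and 9.36 to 11.70 at 10 mg/kg, with a change of -0.07 ± 0.39 (95% interval -0.89 to 0.75). The WT interval lay below 0, so that fall passed limma's unadjusted p under 0.05 and failed after adjustment. The Null interval spanned 0, and with this spread among mice a change inside it cannot be told from none.

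**Figure D2:**
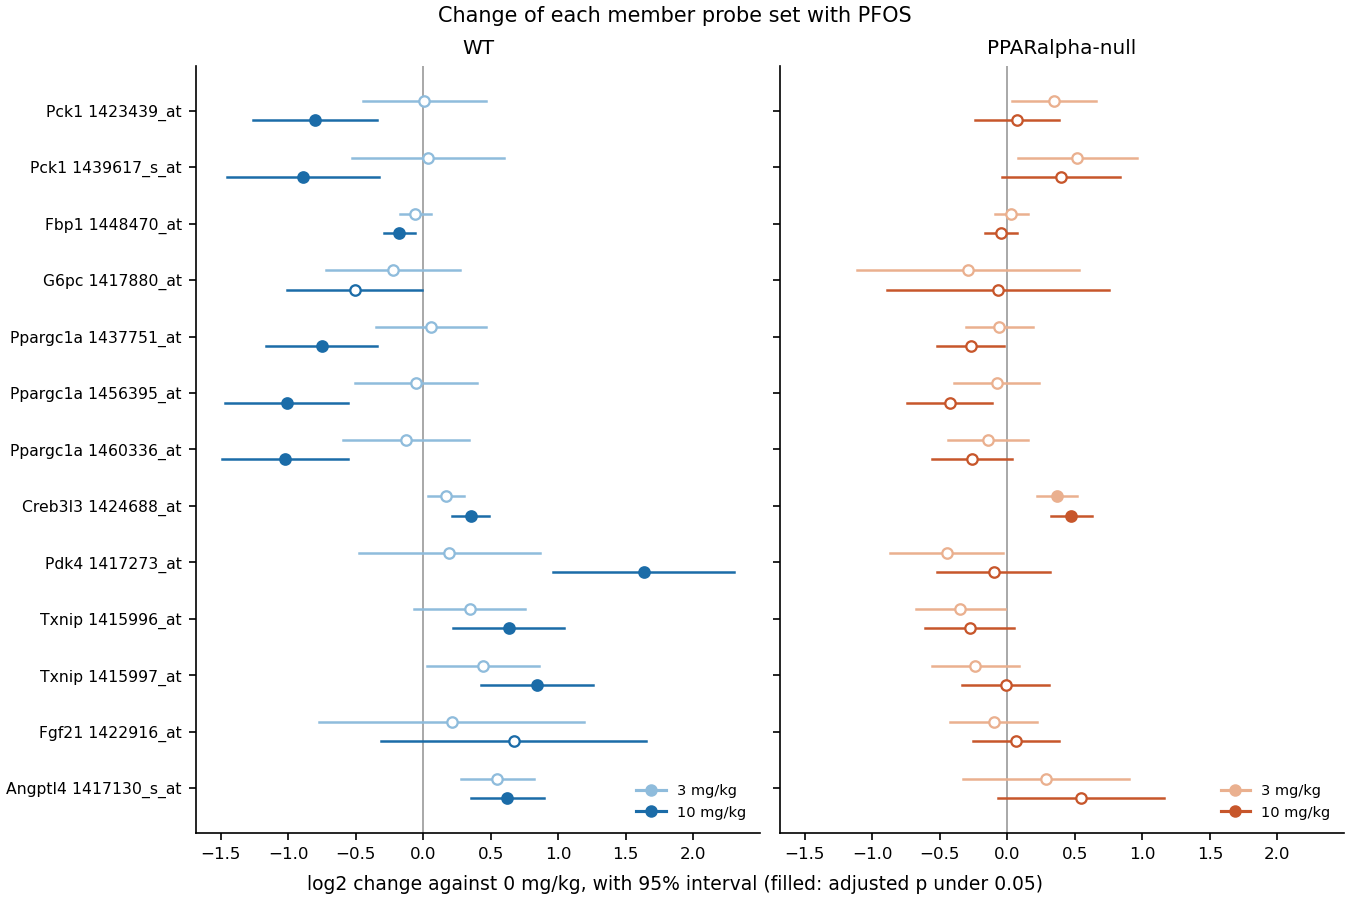
Log2 change (x axis) of the 13 tested member probe sets against the controls of the same genotype, at 3 and 10 mg/kg, in WT and Null; bars are 95% intervals and filled points have an adjusted p under 0.05. In WT 11 of 13 points at 10 mg/kg are filled, on both sides of 0, and in Null only Creb3l3 is filled, at both doses.

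Ppargc1a, the coactivator upstream of these enzymes, fell in WT at 10 mg/kg in these values. The paper reads the gene otherwise and states that PFOS left its expression unchanged. It describes its arrays, and real-time PCR of a separate set of mice, as showing no apparent up-regulation. Its probe set 1456395_at read 7.09, 6.36, 6.43, 6.23, and 6.31 in WT controls and 6.18, 6.60, 6.61, 6.36, and 6.41 at 3 mg/kg. The WT 10 mg/kg arrays read 5.71, 4.59, 5.95, 5.42, and 5.69, below all 10 arrays of the lower doses. The change was -1.01 ± 0.21 (adjusted p = 0.00911), and it was called in all 15 runs with 1 array left out. Probe sets 1460336_at and 1437751_at changed by -1.02 ± 0.22 (adjusted p = 0.00999) and -0.75 ± 0.19 (adjusted p = 0.0239). The latter lost its call without control replicate 1 or 3 (highest adjusted p = 0.0647, smallest change -0.58) and in 3 of 11 other settings of the fit (highest adjusted p = 0.0703). All 3 fell further without the doubted arrays (-1.16, -1.17, and -0.91). Against 3 mg/kg, the same probe sets fell by 0.96, 0.90, and 0.81 (adjusted p = 0.0219, 0.0314, and 0.0291), while their changes at 3 against 0 mg/kg were -0.05, -0.13, and 0.06. The call of 1456395_at against 3 mg/kg was lost without WT 3 mg/kg replicate 2 or 3 (highest adjusted p = 0.0578). The other 2 were lost without WT 3 mg/kg replicate 1, 2, 3, or 5 or WT 10 mg/kg replicate 1, 2, or 5 (highest adjusted p = 0.0803 and 0.0734).

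In Null mice Ppargc1a was not called at 10 mg/kg. The 1456395_at arrays read 6.66, 6.72, 6.34, 6.18, and 6.22 in Null controls and 5.60, 6.31, 6.27, 6.02, and 5.78 at 10 mg/kg, with 3 treated arrays below all controls. That change was -0.43 ± 0.15 (adjusted p = 0.0917), and the others were -0.26 and -0.27 (adjusted p = 0.282 and 0.178), none of them called. The 3 differences in response (Null minus WT) were 0.58, 0.76, and 0.48, and none was called (adjusted p = 0.280, 0.132, and 0.306). The 95% interval of the second was 0.20 to 1.32. Null at 10 mg/kg itself exceeded WT by 0.89 for 1460336_at (adjusted p = 0.00248) and 0.61 for 1437751_at (adjusted p = 0.0145), and by 0.52 for 1456395_at (adjusted p = 0.0744), which did not pass. Without WT 10 mg/kg replicate 2 the call of 1437751_at was lost (adjusted p = 0.0610), as it was with the compared groups only (adjusted p = 0.0790). The 2 weak probe sets of the gene, read with no filter on low values, were called in 1 genotype each at 10 mg/kg. For 1434100_x_at the change was -1.23 in WT (adjusted p = 0.0122) and -0.46 in Null (adjusted p = 0.248), and for 1434099_at it was -1.01 in WT (adjusted p = 0.0787) and -0.99 in Null (adjusted p = 0.0119). Their mean signals were 4.26 and 4.09, and over the 30 arrays they were correlated with the tested probe sets (r from 0.80 to 0.92).

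Creb3l3, the fasting factor that acts with PPARalpha on Fgf21, was the member called higher at 10 mg/kg in both genotypes. In WT its signals were 11.97, 11.99, 11.93, 11.87, and 11.97 at 0 mg/kg, 12.12, 12.28, 12.02, 12.06, and 12.10 at 3 mg/kg, and 12.33, 12.40, 12.32, 12.14, and 12.30 at 10 mg/kg. In Null they were 11.44, 11.52, 11.43, 11.59, and 11.64 in controls, 11.89, 11.91, 11.86, 11.77, and 12.01 at 3 mg/kg, and 12.11, 11.91, 11.98, 12.08, and 11.90 at 10 mg/kg. In each genotype every treated array lay above every control. WT rose by 0.35 ± 0.06 at 10 mg/kg (adjusted p = 0.00344; 0.335 and 0.00652 without the doubted arrays), while its 0.17 at 3 mg/kg did not pass (adjusted p = 0.786). Null rose by 0.37 ± 0.07 at 3 mg/kg (adjusted p = 0.0101) and by 0.48 ± 0.07 at 10 mg/kg (adjusted p = 0.00140). Between 10 and 3 mg/kg limma called neither genotype, at 0.18 in WT (adjusted p = 0.0936) and 0.11 in Null (adjusted p = 0.624). Null lay below WT by 0.42 at 0 mg/kg (adjusted p = 0.000612), by 0.23 at 3 mg/kg (adjusted p = 0.0203), and by 0.30 at 10 mg/kg (adjusted p = 0.00167), with no overlap at any dose. The difference in response at 10 mg/kg was 0.12 (95% interval -0.06 to 0.30, adjusted p = 0.535). The dose calls and the difference at 0 mg/kg held in every run with 1 array left out. The difference at 3 mg/kg was lost without Null 3 mg/kg replicate 4 or WT 3 mg/kg replicate 2 (highest adjusted p = 0.0552).

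Pdk4, the kinase that spares pyruvate for glucose synthesis, rose the furthest of the members in WT. Its control arrays read 5.84, 6.41, 6.01, 7.46, and 6.76, the last 2 being the doubted arrays. Signals at 3 mg/kg were 6.94, 6.28, 6.53, 6.61, and 7.10. Those at 10 mg/kg were 7.38, 8.76, 8.49, 8.56, and 7.46. The 10 mg/kg arrays lay above all 5 arrays at 3 mg/kg and overlapped the controls only through replicate 4. The rise was 1.63 ± 0.31 (3.10-fold, adjusted p = 0.00525), or 2.04 without the doubted arrays (adjusted p = 0.000421), and it was called in all 15 runs with 1 array left out. At 3 against 0 mg/kg the change was 0.19 (adjusted p = 1.00), and at 10 against 3 mg/kg it was 1.44 ± 0.31 (adjusted p = 0.0204), a call lost without replicate 2 of either dose (highest adjusted p = 0.0576).

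In Null mice Pdk4 was not called. Its signals were 6.93, 7.43, 7.14, 6.91, and 6.55 in controls, 6.35, 6.45, 6.87, 6.86, and 6.16 at 3 mg/kg, and 6.72, 7.43, 6.77, 6.38, and 7.13 at 10 mg/kg, overlapping throughout. The changes were -0.45 ± 0.20 (adjusted p = 0.239) and -0.10 ± 0.20 (adjusted p = 0.813). The difference in response at 10 mg/kg, Null minus WT, was -1.73 ± 0.39 (adjusted p = 0.0153), and -2.14 without the doubted arrays (adjusted p = 0.00205). It was called in all 30 runs with 1 array left out and under all 10 other settings of the fit. Of the 13 probe sets, Pdk4 and 1 of Pck1 (1439617_s_at, 1.29 ± 0.36, adjusted p = 0.0435) were called in this comparison, 2 of 13 against 2.95% of all probe sets. For Pck1 1423439_at the difference of 0.87 did not pass (adjusted p = 0.0778). The Pck1 call held in 16 of the 30 runs (adjusted p from 0.0164 to 0.0986) and in 6 of those 10 settings (adjusted p from 0.0126 to 0.0666). The runs that lost it left out Null replicate 2, 4, or 5 at 0 mg/kg, 5 at 3 mg/kg, or 3 or 4 at 10 mg/kg, or WT replicate 1, 3, or 4 at 0 mg/kg, 4 at 3 mg/kg, or 1, 2, 4, or 5 at 10 mg/kg. At 3 mg/kg, 0 of 13 differences in response were called by limma (3 at an unadjusted p under 0.05, and 0 by the methods' t-test), against 0.818% of all.

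Txnip, the thioredoxin inhibitor, was higher in WT at 10 mg/kg. Its probe set 1415997_at read 10.30, 10.30, 10.12, 9.68, and 9.62 in WT controls, the lowest 2 being the doubted arrays. The WT arrays at 3 mg/kg read 10.24, 11.27, 10.28, 10.29, and 10.14. Those dosed with 10 mg/kg read 10.94, 10.95, 11.01, 10.58, and 10.77, all above the controls. The rise was 0.85 ± 0.20 (adjusted p = 0.0152) and 0.61 without the doubted arrays (adjusted p = 0.0414). The other probe set, 1415996_at, rose by 0.63 ± 0.19 (adjusted p = 0.0481), but by 0.38 without the doubted arrays (adjusted p = 0.170), so its call rests on them. It was called in 3 of 15 runs with 1 array left out, those without WT 0 mg/kg replicate 2, WT 3 mg/kg replicate 2, or WT 10 mg/kg replicate 4 (adjusted p from 0.0192 to 0.102), and in 4 of 11 other settings of the fit (adjusted p from 0.0191 to 0.0907).

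In Null mice the Txnip changes at 10 mg/kg were -0.01 and -0.28 (adjusted p = 0.972 and 0.311), from 10.13, 9.99, 10.11, 10.06, and 10.26 in controls to 10.13, 10.45, 10.24, 9.49, and 10.17 for 1415997_at. Null lay below WT by 0.75 at 10 mg/kg for this probe set (adjusted p = 0.00664) and by 0.57 at 3 mg/kg (adjusted p = 0.0450). The latter was called in 17 of 30 runs with 1 array left out (differences from -0.65 to -0.37), and it stood at -0.37 without WT 3 mg/kg replicate 2, the array at 11.27 (adjusted p = 0.140). It was also lost without Null replicate 1, 2, 3, or 4 at 0 mg/kg or 1, 2, 4, or 5 at 3 mg/kg, or without WT replicate 1 or 3 at 3 mg/kg or 1 or 5 at 10 mg/kg. For 1415996_at Null lay below WT by 0.69 at 10 mg/kg (adjusted p = 0.0132), lost without Null 10 mg/kg replicate 4 (adjusted p = 0.0579). The differences in response at 10 mg/kg, -0.86 for 1415997_at and -0.91 for 1415996_at, did not pass (adjusted p = 0.0658 and 0.0511).

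Fgf21, the fasting hormone that PPARalpha switches on in liver, differed between the genotypes and was not called with dose. Its control arrays labelled WT read 6.47, 7.82, 7.47, 5.29, and 5.47. WT signals at 3 mg/kg were 6.79, 6.63, 6.69, 7.10, and 6.36, and at 10 mg/kg they were 6.64, 7.90, 6.09, 7.13, and 8.10. The doubted arrays at 5.29 and 5.47 lay within the Null range, and the other 13 WT arrays lay between 6.09 and 8.10. In Null the signals were 4.90, 5.64, 5.51, 5.68, and 5.69 in controls, 5.50, 5.58, 5.35, 5.47, and 5.01 at 3 mg/kg, and 5.49, 5.78, 5.65, 5.21, and 5.62 at 10 mg/kg. With the doubted arrays aside, no WT and Null array overlapped, and many Null signals lay below the median of all values. The Fgf21 signals of the doubted arrays were known when they were set aside, so this split is a description only.

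With dose, Fgf21 was not called in either genotype. The WT change at 10 mg/kg was 0.67 ± 0.46 (95% interval -0.31 to 1.65, adjusted p = 0.367), and it turned to -0.08 without the doubted arrays (adjusted p = 0.907). The Null change was 0.06 ± 0.15 (adjusted p = 0.849). Null lay below WT by 1.33 at 3 mg/kg (adjusted p = 0.0196) and by 1.62 at 10 mg/kg (adjusted p = 0.00328). Fgf21 passed the filter through WT, since 13 of 15 WT arrays and 3 of 15 Null arrays exceeded it, so these differences are set against weak signals and no fold is given. With no filter they were also called (adjusted p = 0.0267 and 0.00412). At 0 mg/kg the difference of -1.02 did not pass (adjusted p = 0.156), and it was -1.77 and called without the doubted arrays (adjusted p = 0.00172). That last call is no separate support, since it leaves out the 2 lowest Fgf21 arrays labelled WT. The call at 3 mg/kg was lost without Null 3 mg/kg replicate 5 (adjusted p = 0.0521).

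**Figure D3:**
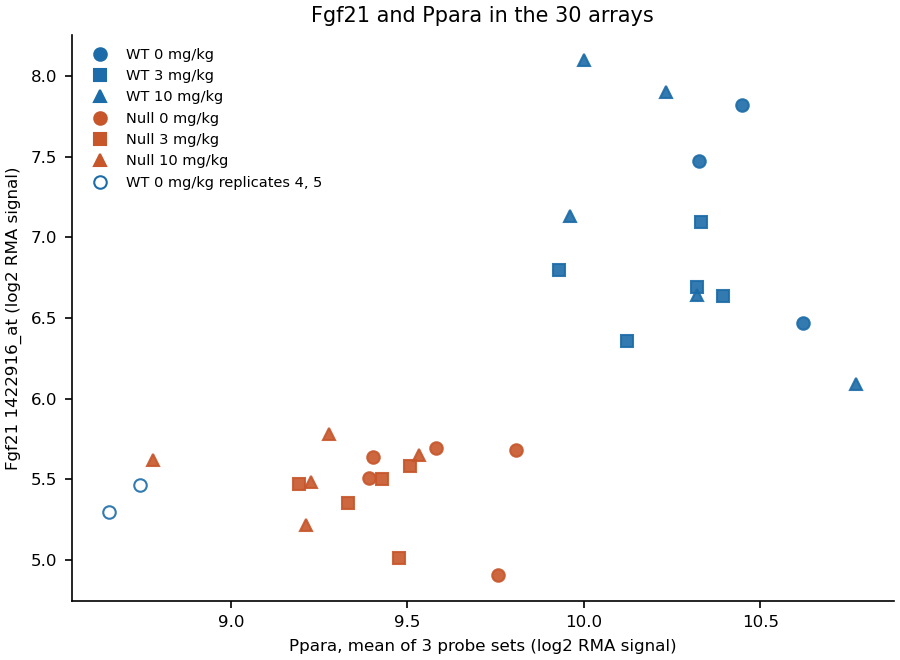
Fgf21 (y axis) against the mean of 3 Ppara probe sets (x axis), both log2 RMA signals, in the 30 arrays by genotype and dose; open circles are the 2 doubted arrays. The 15 Null arrays and the doubted arrays sit at 5.78 or below in Fgf21, and the other 13 WT arrays sit at 6.09 or above.

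Angptl4, the secreted inhibitor of lipoprotein lipase, was higher in WT at both doses by similar amounts, with 1 dose called. Its probe set 1417130_s_at read 11.01, 10.93, 10.69, 10.66, and 10.50 in WT controls. The WT arrays read 11.38, 11.49, 10.96, 11.25, and 11.45 at 3 mg/kg and 11.43, 11.65, 11.33, 11.03, and 11.47 at 10 mg/kg. The 10 mg/kg arrays all lay above the controls, and 1 of those at 3 mg/kg (10.96) lay among them. The change was 0.62 ± 0.13 at 10 mg/kg (adjusted p = 0.00755; 0.50 and 0.0186 without the doubted arrays) and 0.55 ± 0.13 at 3 mg/kg (adjusted p = 0.168). The call at 10 mg/kg was lost with all 30 arrays in 1 fit (adjusted p = 0.0878, range over 11 settings 0.00559 to 0.0878).

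Null mice spread more widely in Angptl4. Their signals were 10.82, 10.63, 9.27, 9.72, and 9.38 in controls, 10.16, 10.19, 10.89, 9.67, and 10.33 at 3 mg/kg, and 10.66, 10.89, 10.56, 9.96, and 10.47 at 10 mg/kg. These overlapped, and the change of 0.54 ± 0.29 at 10 mg/kg did not pass (95% interval -0.07 to 1.16, adjusted p = 0.286). The difference in response was -0.08 (95% interval -0.77 to 0.61, adjusted p = 0.943). Null lay below WT by 1.06 at 3 mg/kg (adjusted p = 0.00521) and by 0.88 at 10 mg/kg (adjusted p = 0.0147), and by 0.79 at 0 mg/kg, which did not pass (adjusted p = 0.0889). Without Null 10 mg/kg replicate 4 the call at 10 mg/kg was lost (adjusted p = 0.0585), and without Null 0 mg/kg replicate 1 that at 0 mg/kg was gained (adjusted p = 0.0233). The weak probe set 1453410_at had a mean signal of 2.34 and passed no test without the filter.

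Between genotypes, 11 of 13 probe sets differed at 10 mg/kg, where 12.0% of all probe sets did. Pck1, Ppargc1a, and Fbp1 were higher in Null (5 probe sets), and Txnip, Angptl4, Pdk4, Fgf21, and Creb3l3 were lower (6 probe sets). In the 3 mg/kg groups 4 of 13 were called, all lower in Null (Txnip, Angptl4, Fgf21, and Creb3l3), against 9.75% of all. Fgf21, in both counts, passed the filter through its WT arrays. The Ppargc1a probe sets had weak signals in WT at 10 mg/kg. In the controls 1 of 13 was called (Creb3l3), against 1.25% of all, and 2 of 13 without the doubted arrays (Creb3l3 and Fgf21), against 1.89%. The added Fgf21 call follows the removal of its 2 lowest arrays labelled WT.

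**Figure D4:**
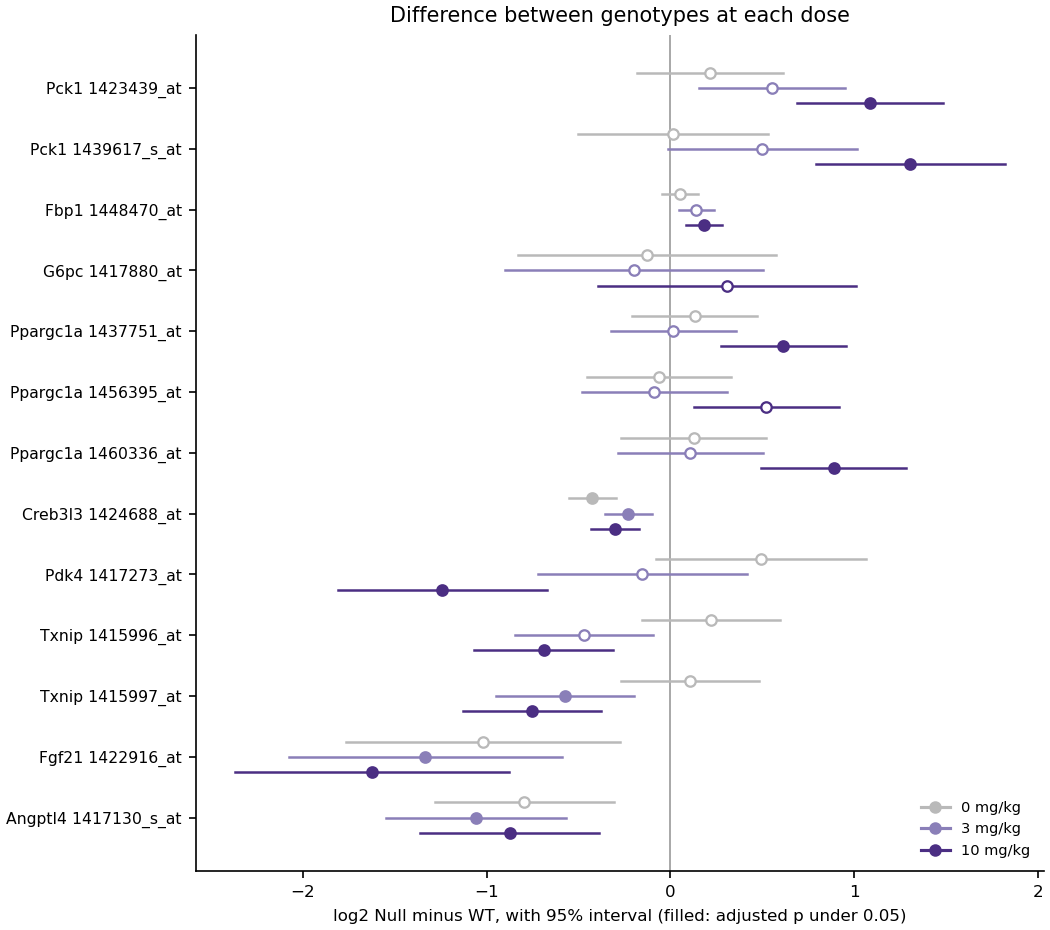
Log2 difference (x axis) between Null and WT at 0, 3, and 10 mg/kg for the 13 tested member probe sets; bars are 95% intervals, filled points have an adjusted p under 0.05, and values below 0 are lower in Null. At 10 mg/kg the Pck1 differences are 1.09 and 1.30, while those of Pdk4 and Fgf21 are -1.24 and -1.62.

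The mean of 8 hepatocyte markers lay between 13.05 and 13.22 in WT controls and between 12.86 and 13.04 in WT at 10 mg/kg, and 2 of the 8 were called lower, with a median change of -0.18. In Null it lay between 13.22 and 13.25 in controls and between 13.00 and 13.24 at 10 mg/kg, with 0 of 8 called. The mean of 13 Kupffer cell and macrophage markers was 8.05 to 9.27 in WT controls and 7.80 to 8.60 at 10 mg/kg (0 of 13 called, median change -0.35), and in Null 8.59 to 9.06 and 8.12 to 8.82 (3 of 13 called lower, median change -0.36). The actin 3′ minus 5′ signal, a sign of RNA integrity, lay between 0.33 and 0.52 in all 30 arrays. Without the doubted arrays the WT calls were 3 lower of the 8 hepatocyte markers and 1 lower of the 13 macrophage markers. Of 9 endothelial markers 0 were called in WT (4 lower without the doubted arrays) and 2 were higher in Null at 10 mg/kg, with median changes of -0.10 and -0.09. Of 7 stellate cell and fibroblast markers 1 was lower in WT (3 without the doubted arrays; median change -0.13) and 0 were called in Null. Their means lay between 8.02 and 8.76 (endothelial) and between 7.99 and 8.94 (stellate) in WT controls, and between 8.12 and 8.44 and between 7.92 and 8.22 at 10 mg/kg. The 6 lymphocyte markers had 0 called in WT (1 lower without the doubted arrays), and the 3 cholangiocyte markers had 0 called either way. Over all 12156 genes at 10 mg/kg, 7.53% rose and 5.54% fell in WT, and 4.14% rose and 4.96% fell in Null. Without the doubted arrays 1675 of them rose and 1733 fell in WT. The part of these marker shifts in the results was not tested.

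The neighbouring pathways were read through 10 gene lists, without the 9 members, as counts and medians. Of 146 genes measured, 18 rose and 14 fell in WT at 10 mg/kg, where 7.53% of all 12156 genes rose and 5.54% fell. In Null 8 rose and 5 fell (4.14% and 4.96% of all genes). The median change over all genes was -0.00 in WT and 0.00 in Null. Without the doubted arrays the WT counts were 31 and 31, where 1675 of all genes rose and 1733 fell. The genes named from these lists kept their direction in WT at 10 mg/kg without the doubted arrays and stayed called, except where stated.

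Of fasting targets of PPARalpha and ketogenesis genes, 13 of 17 rose and 0 fell in WT at 10 mg/kg, with a median change of 0.75. Without the doubted arrays 12 rose and 0 fell, with a median of 0.59. At 3 mg/kg 7 rose, and 6 without the doubted arrays (median 0.46 and 0.37; 0.239% of all genes rose). In Null at 10 mg/kg 2 rose and 2 fell, with a median of -0.00. Vnn1, a pantetheinase, rose by 4.34 ± 0.47 in WT (adjusted p = 3.34e-05) and was not called in Null (adjusted p = 0.994). Cyp4a14, a fatty acid omega-hydroxylase, rose by 3.62 ± 0.34 (adjusted p = 1.17e-05), and Ehhadh, of peroxisomal beta-oxidation, by 2.12 ± 0.18 (adjusted p = 4.26e-06). Mgll, a monoglyceride lipase, rose by 1.09 ± 0.13 in WT and fell by 0.42 ± 0.10 in Null (adjusted p = 7.61e-05 and 0.0245). The difference in response was called lower in Null for 8 of the 17 (3.03% of all genes), with a median of -0.60, among them Vnn1 (-4.35, adjusted p = 1.89e-05) and Mgll (-1.51, adjusted p = 3.83e-06).

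Gluconeogenesis enzymes other than the members did not move as 1 group. Of 16 measured, 2 rose and 3 fell in WT at 10 mg/kg, with a median of 0.08. Without the doubted arrays 5 rose and 4 fell (median 0.09). In Null 0 of 16 were called by limma. Got1, the cytosolic aspartate aminotransferase that feeds oxaloacetate to PEPCK, fell the furthest. Its WT signals were 12.61, 12.10, 12.60, 12.77, and 12.60 at 0 mg/kg and 11.38, 10.37, 11.80, 11.29, and 11.66 at 10 mg/kg, all below the controls. Such lack of overlap was part of the rule by which Got1 was named. The change was -1.24 ± 0.22 (adjusted p = 0.00277) in WT and 0.36 ± 0.14 (adjusted p = 0.144) in Null, and the difference in response of 1.59 ± 0.27 was called (adjusted p = 0.00138). The transaminases Gpt and Tat fell by 0.47 and 0.46 in WT (adjusted p = 0.0138 and 0.0426), though Tat was -0.39 and not called without the doubted arrays (adjusted p = 0.0939). Gpd1, which moves glycerol phosphate toward glucose, rose by 0.44 ± 0.07 (adjusted p = 0.00201).

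Among glycolysis and glycogen genes 1 of 21 rose and 4 fell in WT at 10 mg/kg, with a median of -0.02. Without the doubted arrays 5 rose and 6 fell (median -0.01). In Null 1 rose and 1 fell. Ugp2, which makes UDP-glucose for glycogen, fell by 0.70 ± 0.15 (adjusted p = 0.00800), and Gckr, the glucokinase regulatory protein, fell by 0.50 ± 0.10 (adjusted p = 0.00828). Pklr, liver pyruvate kinase, fell by 0.47 ± 0.14 (adjusted p = 0.0494), and was -0.45 and not called without the doubted arrays (adjusted p = 0.0723). Khk, fructokinase, fell in Null by 0.34 ± 0.08 (adjusted p = 0.0222).

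Fasting signal and transcription genes, which include the glucagon receptor and CREB and FOXO factors, were called in 2 of 23 in WT at 10 mg/kg, both lower (median -0.19), and in 0 of 23 in Null. They were Hnf4a (-0.42 ± 0.12, adjusted p = 0.0343), a master factor of hepatocytes, and Prkar1a (-0.24 ± 0.06, adjusted p = 0.0193), a regulatory subunit of protein kinase A. Without the doubted arrays 9 of 23 were called, each lower. Of 16 insulin and FOXO1 targets, 1 rose and 2 fell in WT (2 and 3 without the doubted arrays), with Bcl6, a repressor of fasting genes, down by 1.41 ± 0.36 (adjusted p = 0.0230), and 1 rose in Null (Mttp, which loads lipid onto nascent lipoproteins, 0.40 ± 0.08, adjusted p = 0.00768). The response of Irs1, an insulin receptor substrate, differed by 0.63 (adjusted p = 0.0421). Glucocorticoid targets had a median change of -0.45 in WT, with 2 of 10 called lower (also 2 without the doubted arrays, median -0.36), and of 0.50 in Null, with 0 of 10 called. Tsc22d3 (GILZ) fell by 0.84 ± 0.15 in WT (adjusted p = 0.00257).

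In the remaining lists 4 genes in all were called in WT at 10 mg/kg. For ATF4 and stress targets it was 1 of 13, Vldlr, a lipoprotein receptor, which rose by 0.88 ± 0.18 (adjusted p = 0.00735) and had a difference in response of -1.18 (adjusted p = 0.0170). In Null 2 genes of that list rose and 2 fell, among them Sesn2, a stress-induced inhibitor of mTORC1 (0.44, adjusted p = 0.0220), and Chac1, which degrades glutathione (-0.80, adjusted p = 0.0297). For Eif4ebp1, a translation repressor, the difference in response was -0.50 (adjusted p = 0.0485). For the ChREBP and TXNIP group it was 2 of 12, both lower, namely Pklr and Mlxipl (ChREBP itself, -0.62, adjusted p = 0.0432), and in Null 2 rose and 1 fell, among them Thrsp, a lipogenic factor, up by 1.25 ± 0.26 (adjusted p = 0.00950), and Txnrd1, a thioredoxin reductase, up by 0.59 (adjusted p = 0.00835). The partners of FGF21 and ANGPTL4 had 1 of 11 called lower (Fgfr2, -0.53, adjusted p = 0.0254), and the CREB3L3 family and targets had 0 of 11 called by limma. Without the doubted arrays these 4 lists held 4, 7, 2, and 2 calls.

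**Figure D5:**
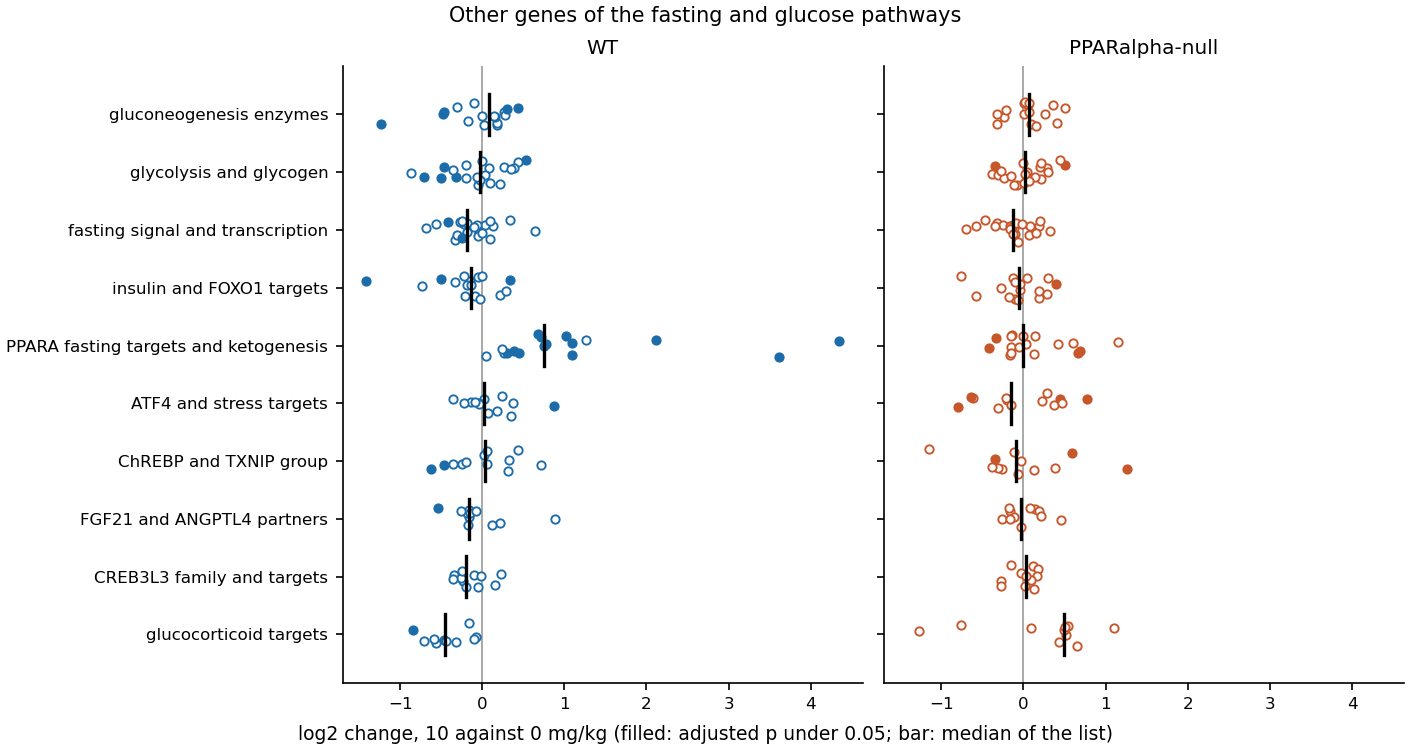
Log2 change at 10 against 0 mg/kg (x axis) of the other genes in 10 pathway lists (y axis), in WT and in Null; each point is a gene, filled points have an adjusted p under 0.05, and black bars are list medians. The PPARA fasting targets lie to the right in WT (median 0.75) and around 0 in Null.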

How the data were processed

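Log2 expression values were deposited by the authors. They made biotin-labelled complementary RNA from total liver RNA and hybridised it to Affymetrix Mouse Genome 430 2.0 arrays. Each probe set was summarised by RMA (background correction, quantile normalization, and median polish). Values ran from 1.46 to 14.50, and the array medians lay between 5.60 and 5.70, so library depth does not apply and the number of arrays (5 per group) limits the precision. The labels do not name separate cages or batches, and p-values were computed against the spread between mice. The paper states that 5 animals shared a cage and not how cages matched the groups. A possible part of the cage thus cannot be told apart from dose or genotype. A genome build is not given in the sources used here.

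Probe sets were named through the platform annotation, with symbols updated by gene identifier (34958 with 1 gene, 932 with several, 9211 with none). Control probe sets (64) were left out. A probe set was kept if 5 or more arrays exceeded 5.65, the median over the whole table (24069 kept). Dose effects were fitted with limma 3.58.1 (R 4.3.3) within each genotype over 15 arrays. Differences in response and between genotypes used all 30 arrays. Moderated p-values were adjusted by Benjamini-Hochberg over all probe sets kept, and an adjusted p under 0.05 was a call. Each gene in the pathway lists was read through 1 probe set, that with the lowest moderated F-test p for the 4 dose effects. Besides the members, a list's named genes were up to 4 called at 10 mg/kg whose treated and control arrays did not overlap, largest change first, and up to 2 called in the difference in response. Mlxipl and Fgfr2 fall outside this rule and were chosen after their values were seen. For each member the 3 genes with the highest Pearson r over the 30 arrays were also named. The members and lists were chosen with earlier results of these data known. The limma fitting step was tested on simulated data with independent noise, and the other steps were not.

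Alternatives were no filter or a stricter one (15 arrays), arrays shifted to the same median or quantile normalized again, limma array weights, a trended and robust eBayes, fits of the compared groups only or of all 30 arrays, a block on replicate number, the brightest probe set of a gene, the methods' t-test, and each array left out in turn. Leaving out both doubted arrays was added after seeing the data.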

Additional observations from a re-analysis of the deposited data

Results flagged for a closer look

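In 3 of 102 groups of 5 arrays, the highest or lowest array stood apart from the others. About 1 in 20 groups would be marked so by chance. Fgf21 in Null 0 mg/kg replicate 1 was the lowest of its group at 4.90. Ppargc1a (1456395_at) in WT 0 mg/kg replicate 1 was the highest of its group at 7.09. Txnip (1415997_at) in WT 3 mg/kg replicate 2 was the highest of its group at 11.27.

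The response at 10 mg/kg differed between genotypes for 2 probe sets by limma's test of that difference. For Pdk4 it was -1.73 (Null minus WT, adjusted p = 0.0153), and for Pck1 (1439617_s_at) it was 1.29 (adjusted p = 0.0435). The other tested Pck1 probe set, 1423439_at, had a difference of 0.87 that did not pass (adjusted p = 0.0778).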

How the results depend on the processing

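No member changed sign past the threshold under any alternative run. Over single values, the alternatives other than leaving out arrays kept the direction and the side of the threshold in 1427 cases, lost a call in 51, and gained one in 30. The count of member probe sets called in WT at 10 against 0 mg/kg, 11 in the fit reported, was 6 with the compared groups only and 7 with the methods' t-test, both at its unadjusted limit of 0.0025 and after Benjamini-Hochberg. At 3 against 0 mg/kg the t-test gave 1 at its limit against 0. At 10 against 3 mg/kg the count of 5 became 9 with array weights and 2 or 0 with the t-test (at its limit or after Benjamini-Hochberg). In Null the count of 1 became 3 with array weights at 3 mg/kg, and 2 at 10 mg/kg with no filter or the replicate block. For the difference in response at 10 mg/kg the count of 2 became 1 with no filter, with arrays shifted to the same median, or with the t-test after Benjamini-Hochberg, and 4 with array weights or the replicate block. For Null against WT the count of 1 at 0 mg/kg became 2 with array weights, the replicate block, or without both doubted arrays, and that of 4 at 3 mg/kg became 7 with array weights. Among the pathway list genes, which hold Pck1, Fbp1, and G6pc but not the other members, 34 were called in WT at 10 mg/kg. Without both doubted arrays 64 were called. Of all 12156 genes, 915 rose and 674 fell in that comparison, and 1675 rose and 1733 fell without those arrays. The cause of the higher counts was not tested.

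With 1 array left out in turn, the counts ran from 6 to 11 in WT at 10 mg/kg (6 without WT 0 mg/kg replicate 1 or 3, 7 without WT 10 mg/kg replicate 1, 2, or 5) and from 1 to 6 at 10 against 3 mg/kg (1 without WT 3 mg/kg replicate 2 or 3 or WT 10 mg/kg replicate 2, and 2 without replicate 1 or 5 of either dose). They ran from 1 to 4 for the difference in response at 10 mg/kg, from 1 to 2 for Null against WT at 0 mg/kg (2 without Null 0 mg/kg replicate 1), from 2 to 5 at 3 mg/kg (2 without Null 3 mg/kg replicate 5), and from 9 to 12 at 10 mg/kg. They were 0 in every run for WT at 3 mg/kg, Null at 10 against 3 mg/kg, and the difference in response at 3 mg/kg, and 1 in every run for Null at 3 and 10 mg/kg. Replicate numbers did not pair the arrays, since same-number correlations of deviations ran from -0.24 to 0.36 over 15 group pairs and 20 of 75 pairs of an array and another group correlated best with the array's own number.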

Other observations

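The genes whose signals ran most like a member's over the 30 arrays are given as a description, by Pearson's r. Arrays of 1 group share genotype and dose. For Fgf21 they were Plin5 (0.88), Etfb (0.87), and Acadvl (0.86). Angptl4 ran with Dnmbp (0.91), Hsd17b4 (0.86), and Eci1 (0.84), and Pdk4 with Acot2 (0.80), Myo5b (0.79), and Mrpl54 (0.79). Creb3l3 ran with Acadl (0.93), Slc22a5 (0.92), and Hacd3 (0.91), and Txnip with Ddhd2 (0.89), Fcgrt (0.88), and Acaa2 (0.84). Pck1 ran with Nbr1 (0.91), Slc1a2 (0.89), and Mat1a (0.87), Fbp1 with Prodh (0.90), Ttc39c (0.89), and Pla1a (0.89), and Ppargc1a with Purg (0.85), Atxn7 (0.84), and Bnip2 (0.84). For G6pc the values were lower, at 0.75 for Slc25a25, 0.66 for Igfbp1, and 0.62 for Cul2.

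The weak Pck1 probe set 1455209_at had a mean signal of 3.44 and correlated with the tested pair at 0.21 and 0.15. With no filter it was higher in Null than in WT by 0.54 at 10 mg/kg (adjusted p = 0.0309).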
